A study of Mus musculus with 6 samples.

Results

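Neutrophils and macrophages are the phagocytes of the innate immune system. Neutrophils are short-lived, mature in the bone marrow under granulocyte colony-stimulating factor and carry proteases in granules that they release in tissue. Macrophages live in the kidney between the tubules, and monocytes from the blood, which follow CC chemokines, add to them when the organ is injured. The 6 genes described here mark these cells: Mmp8 (neutrophil collagenase), Csf3r (the receptor for granulocyte colony-stimulating factor), Itgam (the CD11b chain of the integrin Mac-1), Ctss (cathepsin S, a lysosomal protease), Mrc1 (the mannose receptor CD206) and Ccr2 (the receptor for the monocyte chemokine Ccl2). They are 6 of 9519 genes that could be read, chosen by name with earlier results of these data known. All 6 were found and passed the filter on low counts.

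RNA from kidneys of C57BL/6 mice at postnatal day 21 was sequenced in 6 libraries, 3 labelled acute renal failure (ARF-labelled) and 3 labelled healthy (healthy-labelled). The titles call the first group treat and the second control, and no agent, operation or genotype is named for either. Whether the libraries of a group come from separate animals is not stated. The p-values therefore measure only how far these 6 libraries differ, and that spread may be technical. The groups keep the word labelled because kidney tubule markers moved in both directions: 8 of 12 tested, mostly of the distal tubule and collecting duct such as Kcnj1 (log2 fold change 3.75) and Scnn1g (2.67), were higher in the ARF-labelled libraries, while the proximal tubule genes Slc34a1 (-2.62) and Slc22a8 (-2.38) were lower. This split by segment was not complete. Trpv5, of the distal tubule, fell as well (-1.58, and -0.97 without healthy-labelled replicate 1). Lrp2, of the proximal tubule, did not pass an adjusted p of 0.05 in edgeR (0.17, adjusted p = 0.612). If the labels were exchanged, every direction given here would be turned round, and this was not tested. Total counts per library were 5455886 to 6191479 in the ARF-labelled and 2873370 to 5710010 in the healthy-labelled libraries. Of 22 kidney tubule markers listed 12 were read, and they summed to 19520 to 23450 CPM (counts scaled to a library total of 1000000) in the ARF-labelled and 8443 to 10590 CPM in the healthy-labelled libraries.

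For 4 of the 6 genes the deposited row of that name lies on no exon of the gene, so each gene is read here through the rows that lie on its exons in the mouse assembly GRCm38. Mmp8 (chromosome 9, 7558456 to 7568485) was covered almost whole, with 2415 of its 2425 exon bases in the row of its own name. Csf3r (chromosome 4, 126024550 to 126044440) was read through 834 of 3506 exon bases in rows named Stk40, Gm12946 and Eva1b. Itgam (chromosome 7, 128062640 to 128118491) was read through 403 of 4926 exon bases in 2 rows, and Ctss (chromosome 3, 95526786 to 95556403) through 289 of 1358 in 2 rows. Mrc1 (chromosome 2, 14229392 to 14332057) was read through only 126 of 5374 exon bases, in the row named Mrc1. Ccr2 (chromosome 9, 124101950 to 124113557) was read through 2233 of 6760 exon bases in 3 rows. Apart from those of Mmp8 and Ccr2, these rows cover more bases in introns or outside the gene than exon bases. Among the Ccr2 rows the one named Gm47180 does so too, with 509 exon bases and 591 outside the gene. The row of Mrc1 holds 126 exon and 3791 intron bases of the gene and 2454 bases outside it. Reads of unspliced RNA can therefore be included, and levels of different genes cannot be compared. The same bases are compared between libraries.

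The promoters of these genes are shown because myeloid promoters are known for binding the factor PU.1, whose core site is GAGGAA. Any part of PU.1 in the result was not tested. The sequences are RefSeq's (GRCm38.p6, plus strand), from 250 bases before the start up to the first exon of either annotation, and capitals mark GAGGAA or its reverse complement TTCCTC.
Mmp8, chr9:7558179-7558428: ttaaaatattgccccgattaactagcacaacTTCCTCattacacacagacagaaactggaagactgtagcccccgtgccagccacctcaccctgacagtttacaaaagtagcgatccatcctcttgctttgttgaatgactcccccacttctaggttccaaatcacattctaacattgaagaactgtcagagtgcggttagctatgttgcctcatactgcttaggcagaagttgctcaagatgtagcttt
Csf3r, chr4:126024409-126024549: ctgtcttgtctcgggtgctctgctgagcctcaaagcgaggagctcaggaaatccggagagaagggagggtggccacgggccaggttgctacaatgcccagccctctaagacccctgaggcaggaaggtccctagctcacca
Itgam, chr7:128062390-128062639: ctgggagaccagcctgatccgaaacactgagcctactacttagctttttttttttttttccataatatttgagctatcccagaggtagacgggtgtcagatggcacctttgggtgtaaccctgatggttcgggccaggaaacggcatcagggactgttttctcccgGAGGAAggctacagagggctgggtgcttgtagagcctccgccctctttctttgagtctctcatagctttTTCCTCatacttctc
Ctss, chr3:95526536-95526785: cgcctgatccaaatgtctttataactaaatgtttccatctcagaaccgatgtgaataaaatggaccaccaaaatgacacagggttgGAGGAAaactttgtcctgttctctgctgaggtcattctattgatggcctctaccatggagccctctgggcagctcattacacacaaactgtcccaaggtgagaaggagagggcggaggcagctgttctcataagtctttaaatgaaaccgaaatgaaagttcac
Mrc1, chr2:14229164-14229391: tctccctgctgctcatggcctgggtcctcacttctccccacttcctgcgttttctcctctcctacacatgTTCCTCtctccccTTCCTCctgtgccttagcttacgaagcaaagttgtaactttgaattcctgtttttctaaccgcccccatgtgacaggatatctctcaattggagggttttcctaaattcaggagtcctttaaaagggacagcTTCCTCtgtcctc
In the 250 bases before the RefSeq start, 5 of 6 genes held GAGGAA on either strand, as did 23.3% of the 32851 promoter windows in the table. Mrc1 held it 3 times and Itgam 2 times, the nearer of these at -15 to -10 from the start of Itgam. The match of Csf3r, at -86 to -81, lies in an exon of the other annotation and is not in the stretch shown. Ccr2 held none, and its window, which overlaps such an exon, is not shown. Only Mmp8 held the C/EBP pattern TTGCNNAA, at -19 to -12, against 9.56% of all windows. None held the AP-1 pattern TGANTCA (6.75% of windows), and Ctss alone held TATAAA, on the other strand (12.4% of windows). A match is a run of letters and not a measured site.

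Every one of the 6 genes was lower in ARF-labelled libraries, and among them Mmp8 and Csf3r, the neutrophil genes, differed most. Mmp8 was 33.2-fold lower and Csf3r 13.0-fold lower, Itgam 5.33-fold, Mrc1 3.53-fold, Ccr2 2.56-fold and Ctss 2.44-fold. All 6 passed an adjusted p of 0.05 in edgeR, as did 24.9% of the 5246 genes tested as lower and 25.1% as higher, so a call by itself was common. With scaling by total count in place of TMM, 63.3% of all calls were higher, against 50.3%, and the 6 genes stayed called lower. The libraries of the groups did not overlap in CPM for 5 of the 6 genes, while all ARF-labelled libraries lay below all healthy-labelled ones in 22.4% of genes tested and above them in 40.0%. The genes were chosen with these results known, so no test was made over the 6 together. Mmp8 and Mrc1 also passed the filter on low counts only through the healthy-labelled libraries, where they are high. In bulk kidney RNA, fewer cells of a type and less RNA per cell cannot be told apart.

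**Figure D1:**
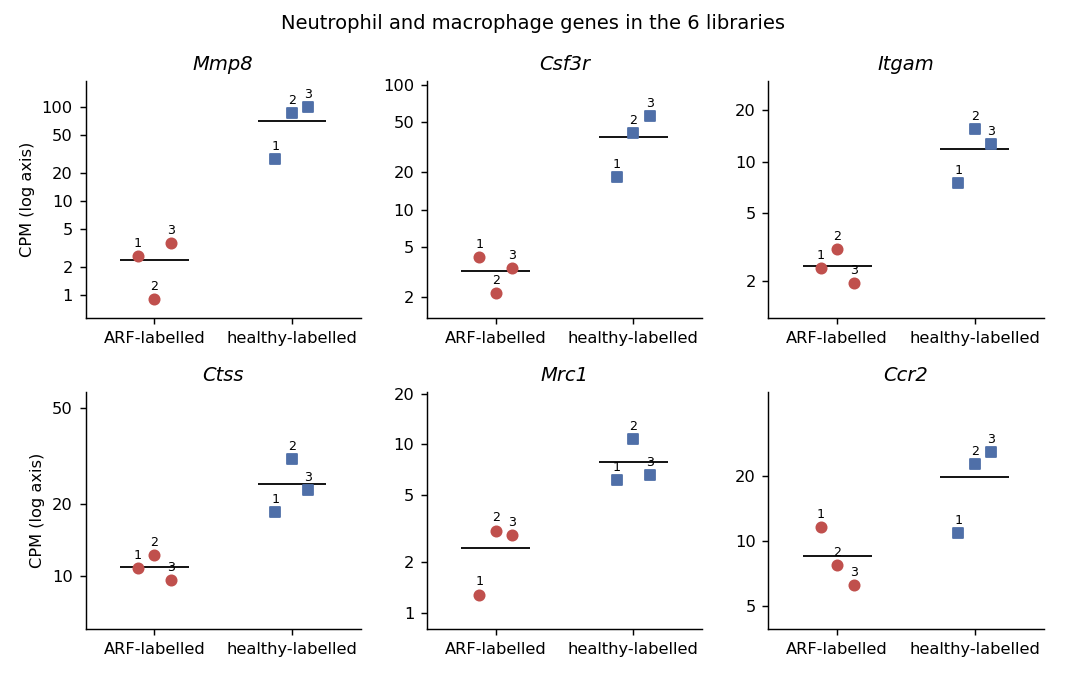
CPM of each gene in the 6 libraries on a log axis, with ARF-labelled libraries as circles on the left and healthy-labelled libraries as squares on the right. Digits are replicate numbers and lines are group means. The groups are separate in every panel except that of Ccr2, where ARF-labelled replicate 1 at 11.5 CPM lies above healthy-labelled replicate 1 at 10.9 CPM.

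Mmp8 encodes a collagenase stored in neutrophil granules that cuts fibrillar collagen. It had 2.57, 0.905 and 3.55 CPM in the ARF-labelled libraries and 28.2, 87.0 and 99.2 CPM in the healthy-labelled libraries. The highest ARF-labelled library was well below the lowest healthy-labelled one, and healthy-labelled replicate 1 stood apart from the other two. The counts behind these values were 14, 5 and 22 in the ARF-labelled and 161, 250 and 360 in the healthy-labelled libraries. The mean was 2.34 ± 1.34 CPM in ARF-labelled and 71.5 ± 37.9 CPM in healthy-labelled libraries (SD, n = 3 each), and the log2 fold change was -5.05 (SE 0.57, adjusted p = 0.000186). Counted from the most negative log2 fold change, it ranked 15 among the genes tested. Mmp8 passed the filter on low counts only through the healthy-labelled libraries, as 2 ARF-labelled libraries reached the 1.82 CPM asked of 3.

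Csf3r encodes the receptor through which granulocyte colony-stimulating factor drives the production and release of neutrophils. Its level was 4.22, 2.17 and 3.39 CPM in the ARF-labelled libraries and 18.4, 40.7 and 56.2 CPM in the healthy-labelled libraries, with no overlap. The mean was 3.26 ± 1.03 CPM in ARF-labelled and 38.4 ± 19.0 CPM in healthy-labelled libraries (SD, n = 3 each), a log2 fold change of -3.70 (SE 0.44, adjusted p = 0.000237). The 3 rows that make up Csf3r lie at separate places in the gene and share only the libraries. Their log2 fold changes in a fit over all deposited rows were -3.54 (SE 0.43) for the row named Stk40, -4.03 (SE 0.58) for Gm12946 and -3.64 (SE 0.50) for Eva1b, a spread smaller than the largest of these SEs. In that fit 22.6% of 10919 rows were called lower and 23.6% higher, and all 3 of these were lower (adjusted p 0.000201 to 0.000495). The row named Gm12946 had 2, 1 and 4 counts in ARF-labelled and 18, 20 and 34 in healthy-labelled libraries, so it rests on few counts. The row named Stk40 includes 1299 bases outside the gene, whereas the other two lie wholly inside it.

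Itgam pairs with the beta 2 chain Itgb2 to form Mac-1, the adhesion and complement receptor of neutrophils, monocytes and macrophages. It had 2.38, 3.08 and 1.94 CPM in the ARF-labelled libraries and 7.53, 15.7 and 12.7 CPM in the healthy-labelled libraries. The groups did not overlap, and the lowest healthy-labelled library was again replicate 1. The mean was 2.47 ± 0.574 CPM in ARF-labelled and 11.95 ± 4.11 CPM in healthy-labelled libraries (SD, n = 3 each), a log2 fold change of -2.41 (SE 0.35, adjusted p = 0.000711). Its 2 rows had 14 and 28 counts over the ARF-labelled and 51 and 83 counts over the healthy-labelled libraries, and log2 fold changes of -2.58 (SE 0.53) and -2.25 (SE 0.34). The row that is itself named Itgam lies on exons of Ctf1 and Gm39090 and moved the other way. That row held 118, 183 and 145 counts in ARF-labelled and 25, 16 and 20 counts in healthy-labelled libraries (adjusted p = 0.000119, log2 fold change 2.20, SE 0.24). Read by row name, the direction of Itgam would be turned round.

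Ctss degrades the invariant chain of class II histocompatibility molecules in antigen-presenting cells. Relative to its mean it varied least of the 6 genes within each group, at 10.8, 12.3 and 9.69 CPM in the ARF-labelled and 18.6, 30.6 and 22.9 CPM in the healthy-labelled libraries. The groups did not overlap. The mean was 10.9 ± 1.31 CPM in ARF-labelled and 24.0 ± 6.11 CPM in healthy-labelled libraries (SD, n = 3 each), which gave a log2 fold change of -1.29 (SE 0.22, adjusted p = 0.00152). The row named Ensa, with 123 exon and 5223 intron bases, gave -1.24 (SE 0.30) on the log2 scale, and the row named E330034L11Rik, with 166 exon and 1576 intron bases, gave -1.29 (SE 0.24). The row named Ctss lies on no exon and held 21 counts over the ARF-labelled and 26 over the healthy-labelled libraries.

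Mrc1 is an endocytic receptor for mannose-bearing glycoproteins on tissue macrophages and on some endothelium. It had 1.28, 3.08 and 2.91 CPM in the ARF-labelled libraries and 6.13, 10.8 and 6.61 CPM in the healthy-labelled libraries. The groups did not overlap, on counts of only 7, 17 and 18 in ARF-labelled and 35, 31 and 24 in healthy-labelled libraries. Mrc1 passed the filter on low counts only through the healthy-labelled libraries, as 2 ARF-labelled libraries reached the 1.82 CPM asked of 3. The mean was 2.42 ± 0.990 CPM in ARF-labelled and 7.84 ± 2.56 CPM in healthy-labelled libraries (SD, n = 3 each), a log2 fold change of -1.82 (SE 0.39, adjusted p = 0.00517).

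Ccr2 brings inflammatory monocytes out of the marrow and into tissue. It had 11.5, 7.78 and 6.30 CPM in the ARF-labelled libraries and 10.9, 22.6 and 25.6 CPM in the healthy-labelled libraries. ARF-labelled replicate 1 and healthy-labelled replicate 1 overlapped in CPM, and after TMM scaling the groups were just separate. The mean was 8.54 ± 2.71 CPM in ARF-labelled and 19.7 ± 7.80 CPM in healthy-labelled libraries (SD, n = 3 each), a log2 fold change of -1.36 (SE 0.36, adjusted p = 0.0128). It was not called without healthy-labelled replicate 3 (log2 fold change -1.13, adjusted p = 0.0548). Of its 3 rows, the one named Gm47179 lies wholly in exon and held 121 of 145 counts in ARF-labelled and 187 of 220 in healthy-labelled libraries, with a log2 fold change of -1.35 (SE 0.38, adjusted p = 0.0169). The row named Gm47181 had 22 counts over the ARF-labelled and 28 over the healthy-labelled libraries, a ratio of 0.559 for ARF-labelled over healthy-labelled with an exact 95% interval of 0.305 to 1.01 for counting error alone. The row named Gm47180 had 2 counts over the ARF-labelled and 5 over the healthy-labelled libraries, too few to test. The row named Ccr2 held 0 counts in all 6 libraries.

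**Figure D2:**
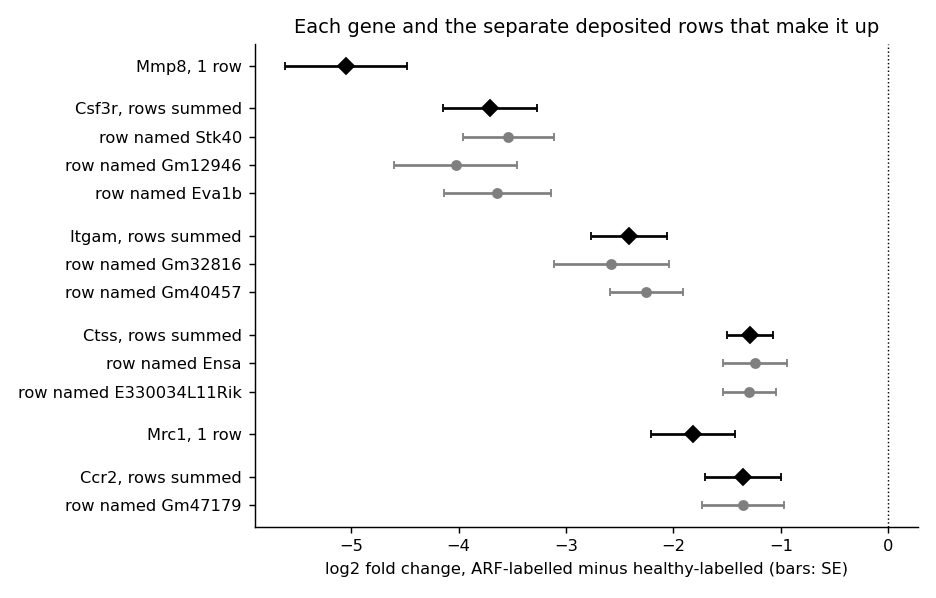
Log2 fold change, ARF-labelled minus healthy-labelled, with its SE, for each gene (diamonds) and for each tested deposited row that makes it up (circles). The 3 rows of Csf3r lie between -4.03 and -3.54, and the rows of Itgam and Ctss lie within 1 SE of their gene's value.

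Healthy-labelled replicate 1 was the lowest of its group in CPM for 6 of 6 genes, against 38.2% of all genes tested and 49.3% of the genes called lower. The genes shared no order beyond that, since replicate 3 was above replicate 2 for Mmp8, Csf3r and Ccr2 and below it for Itgam, Ctss and Mrc1. Replicate 1 is also the deepest of the healthy-labelled libraries. Hbb-bs, the beta globin of red cells, had its lowest healthy-labelled value in the same library, with 832, 2104 and 1568 counts in replicates 1, 2 and 3, and 131, 402 and 275 counts in the ARF-labelled libraries. Its part in the result was not tested. Without healthy-labelled replicate 1 the log2 fold changes were more negative, at -5.46 for Mmp8, -4.06 for Csf3r, -2.68 for Itgam, -1.46 for Ctss, -1.99 for Mrc1 and -1.68 for Ccr2.

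Ratios within a library compare the genes with each other, free of library depth. The log2 ratio of Mmp8 to Ctss (CPM with 0.5 added) averaged -2.13 in ARF-labelled and 1.39 in healthy-labelled libraries, a difference of -3.53. That of Csf3r to Ctss averaged -1.64 in ARF-labelled and 0.56 in healthy-labelled libraries, a difference of -2.19, and that of Mmp8 to Csf3r differed by -1.33. For each of these ratios the groups did not overlap, and the exact two-sided permutation p was 0.10 (adjusted p = 0.136 over the 15 pairs of genes), the smallest that 3 against 3 libraries allow. The ratio of Itgam to Ctss differed by -0.95 (same p), while that of Ctss to Ccr2 differed by 0.04 (exact permutation p = 0.90). Of the 15 pairs, 11 did not overlap between the groups. With 3 against 3 libraries this permutation test cannot reach 0.05. The ratios largely restate differences between fold changes of genes chosen with these results known, so their separation is no further support.

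**Figure D3:**
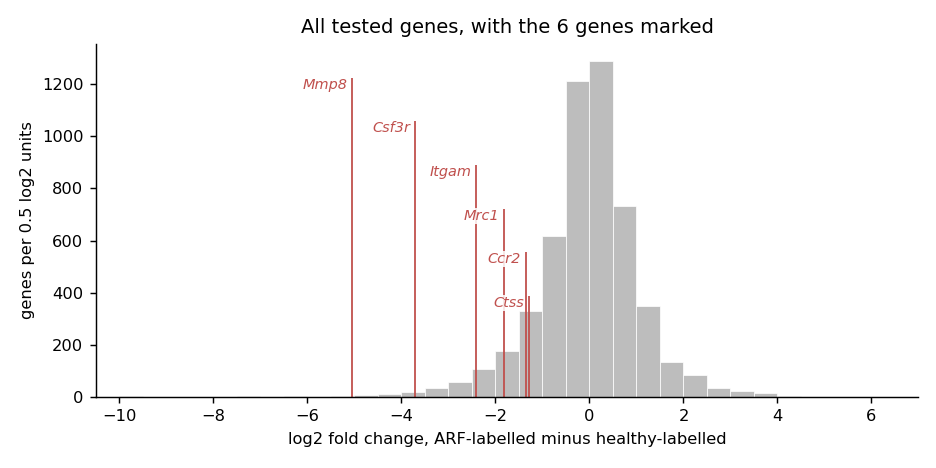
Number of tested genes per 0.5 log2 units of fold change, ARF-labelled minus healthy-labelled, with the 6 genes marked by lines. The median of all genes is 0.01, and Mmp8 at -5.05 and Csf3r at -3.70 lie in the far left tail.

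The genes whose profiles lay closest to each of the 6 were found among all tested genes by the root mean square difference of log2 CPM over the 6 libraries, after each profile was centred on its own mean. A gene that changed by a like amount is close by construction. Csf3r was closest to Csf2rb (0.186 log2 units), Plek (0.197) and Spry4 (0.258), and Mmp8 to A530046M15Rik (0.584), Zfp469 (0.607) and Slfn4 (0.643). The distance between Mmp8 and Csf3r themselves was 0.740. Itgam was closest to Robo4 (0.0846), Cyp4f18 (0.148) and Arhgap31 (0.187), and Mrc1 to Socs1 (0.102), Ccnf (0.205) and Sh2b2 (0.207). Ctss was closest to Trim6 (0.0942), Osbp2 (0.114) and Plekhg1 (0.129), and Ccr2 to Atf5 (0.176), Tgtp2 (0.189) and Ptprc (0.203). Several of these genes passed the filter on low counts only through the healthy-labelled libraries. They are Csf2rb, Plek, A530046M15Rik, Zfp469, Slfn4, Cyp4f18, Socs1, Ccnf and Sh2b2. A530046M15Rik was read through only 48 exon bases and Spry4 through 67.

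Other neutrophil genes could be read only in part, with 6 of 34 listed genes read and 4 tested. Of these, 2 are Mmp8 and Csf3r. The others were Clec4d, a lectin receptor of myeloid cells, with 1, 2 and 3 counts in ARF-labelled and 28, 37 and 57 counts in healthy-labelled libraries (log2 fold change -5.04, SE 0.60), and Il1r2, the decoy receptor for interleukin-1, with 3, 2 and 1 counts in ARF-labelled and 28, 22 and 52 in healthy-labelled libraries (-4.73, SE 0.60). Clec4d was read through 93 and Il1r2 through 87 exon bases, and neither is tested where at least 100 are asked for. Both passed the filter on low counts only through the healthy-labelled libraries, where they are high. Their direction was thus fixed by the filter and is no support for that of Mmp8 and Csf3r. Mmp8 itself passed only through the healthy-labelled libraries, so the filter limits its direction as well. Of the genes read but not tested, the formyl peptide receptor gene Fpr1 had 1 count over the ARF-labelled and 9 over the healthy-labelled libraries, and the granule protease gene Ctsg had 0 over the ARF-labelled and 1 over the healthy-labelled libraries. The summed level of the list was 3.80 to 7.75 CPM in ARF-labelled and 57.3 to 186 CPM in healthy-labelled libraries. Mmp8 and Csf3r make up most of this sum in every library, so it is no further support for their direction.

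Of 35 macrophage, monocyte and dendritic cell genes, 14 were read and 11 tested, of which 7 were lower and 0 higher (median log2 fold change -1.21). Over all genes tested 24.9% were lower and 25.1% higher, shares that stand beside the counts of this and every later list. Itgam, Ctss, Mrc1 and Ccr2 are 4 of the 7, and without them 3 of 7 were lower (median -0.67). These were Gpnmb, a glycoprotein of phagocytes (-1.44, SE 0.45), the complement gene C1qc (-1.21, SE 0.41) and Mertk, a receptor for apoptotic cells (-0.56, SE 0.17). Of them, Gpnmb passed the filter on low counts only through the healthy-labelled libraries. Gpnmb and C1qc lost their calls without ARF-labelled replicate 1 or 2 or healthy-labelled replicate 2 or 3 (adjusted p 0.0516 to 0.123), and Mertk without ARF-labelled replicate 2 or healthy-labelled replicate 3 (adjusted p 0.0810 and 0.0829). The count called was 4 without ARF-labelled replicate 2 and 3 without healthy-labelled replicate 3. Not called were the haemoglobin scavenger receptor Cd163 (-1.09, adjusted p = 0.161), lysozyme Lyz2 (-0.67, adjusted p = 0.224), the dendritic cell integrin Itgax (-0.47, adjusted p = 0.495) and the dendritic cell factor Zbtb46 (-0.08, adjusted p = 0.857). The summed level of the list, with Itgam, Ctss, Mrc1 and Ccr2 included, was 68.9 to 74.4 CPM in ARF-labelled and 93.3 to 166 CPM in healthy-labelled libraries.

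**Figure D4:**
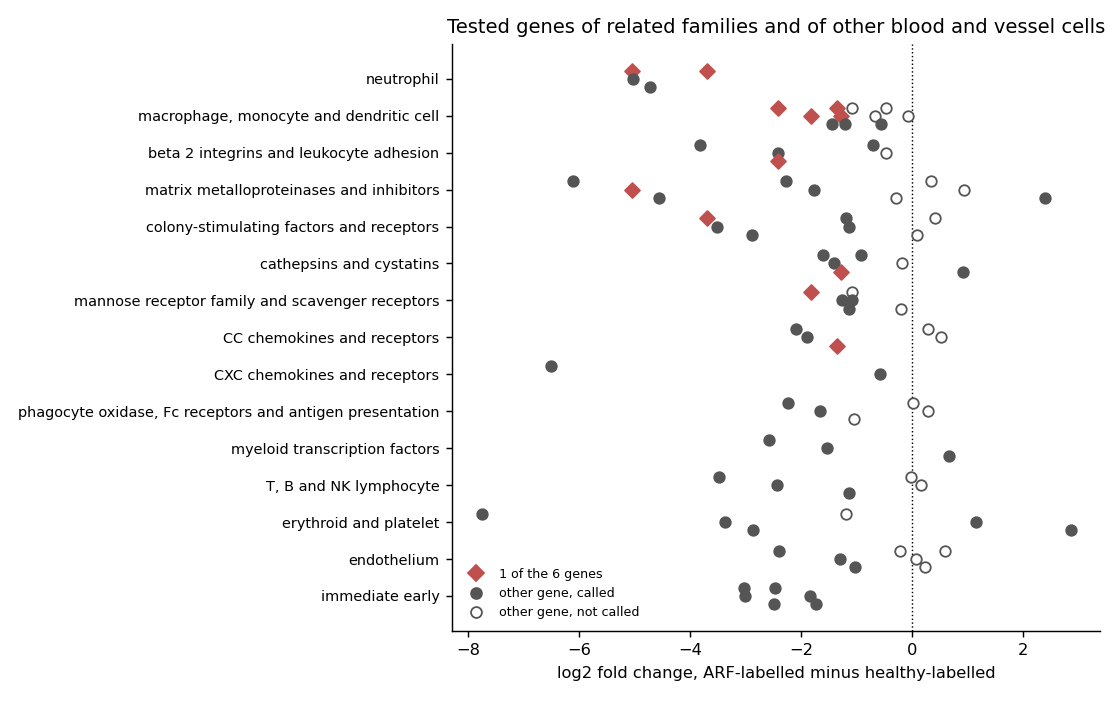
Log2 fold change, ARF-labelled minus healthy-labelled, of every tested gene in each list except the kidney tubule list, which is not plotted. The 6 genes are diamonds. Filled symbols passed an adjusted p under 0.05 and open symbols did not. The 4 tested neutrophil genes lie between -5.05 and -3.70, and the 11 macrophage, monocyte and dendritic cell genes between -2.41 and -0.08.

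Matrix metalloproteinases related to Mmp8 were mixed. Of 22 genes of the family and its inhibitors 9 were tested, with 5 lower and 1 higher (median log2 fold change -1.77). Without Mmp8, 4 of 8 were lower (median -1.03). The number higher was 2 with scaling by total count and without healthy-labelled replicate 2, and 0 where all exon bases under a row had to lie in 1 gene or all transcripts were used. The stromelysin genes Mmp3 and Mmp10, which lie near Mmp8 on chromosome 9, were lower. Mmp3 had 18, 9 and 18 counts in ARF-labelled and 321, 175 and 180 in healthy-labelled libraries (-4.57, SE 0.22). Mmp10 had 1 count over the ARF-labelled and 66 over the healthy-labelled libraries, a ratio of 0.0108 (exact 95% interval 0.000269 to 0.0622, counting error alone), and passed the filter only through the healthy-labelled libraries. Mmp19 (-2.28, SE 0.38) and the membrane-bound Mmp14 (-1.77, SE 0.18) were lower as well. Like Mmp10, Mmp3 and Mmp19 passed the filter only through the healthy-labelled libraries. Mmp12, the macrophage elastase, was not called, with 16, 23 and 9 counts in ARF-labelled and 10, 18 and 7 in healthy-labelled libraries (-0.29, adjusted p = 0.713). The inhibitor gene Timp4 was higher (2.40, SE 0.39), and Timp2 was not called (0.34, adjusted p = 0.0967).

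Around Csf3r, 7 of 15 colony-stimulating factor, receptor and signalling genes were tested and 5 were lower, with 0 higher (median -1.19, and -1.16 with 4 of 6 lower without Csf3r). The shared beta chain of the receptors for granulocyte-macrophage colony-stimulating factor and interleukin-3, Csf2rb, had 2.08 ± 0.710 CPM in ARF-labelled and 21.7 ± 8.66 CPM in healthy-labelled libraries (SD, n = 3 each), a log2 fold change of -3.51 (SE 0.40). Its closely similar copy Csf2rb2 was lower too (-2.88, SE 0.50), and reads of the copies may be mixed. Csf2rb and Csf2rb2 passed the filter on low counts only through the healthy-labelled libraries. The kinase Jak2 (-1.19, SE 0.12) and the transcription factor Stat3 (-1.14, SE 0.09), through which Csf3r signals but which most cells express, were lower by less. Stat5a (0.41, adjusted p = 0.162) and Stat5b (0.09, adjusted p = 0.546) were not called.

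Around Itgam, 5 of 18 integrin and leukocyte adhesion genes were tested and 4 were lower. The median of -2.41 is the value of Itgam, and without it 3 of 4 were lower (median -1.56). The count lower was 2 where all exon bases under a row had to lie in 1 gene. Vcam1 (-2.42, SE 0.44) and Selp, the P-selectin of activated endothelium and platelets (-3.82, SE 0.40), are counter-receptors of leukocytes on the vessel wall, and Tln1, the integrin activator talin (-0.71, SE 0.16), is found in most cells. Vcam1 and Selp passed the filter on low counts only through the healthy-labelled libraries. The partner chain Itgb2 was read through 27 exon bases and not tested. Itgb2 had 4, 4 and 3 counts in ARF-labelled and 9, 7 and 7 counts in healthy-labelled libraries.

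Around Ctss, 6 of 19 cathepsin and cystatin genes were tested, with 4 lower and 1 higher (median -1.11), and without Ctss 3 of 5 were lower (median -0.92). The number higher was 0 where at least 100 exon bases were required. Ctsz (-1.61, SE 0.16), Ctsl (-1.41, SE 0.20) and the inhibitor gene Cstb (-0.92, SE 0.14) were lower, Ctsf was higher (0.92, SE 0.16), and Ctsh was not called (-0.18, adjusted p = 0.386). Ctsz, Ctsl, Ctsf and Ctsh are also proteases of tubule cells, whereas Ctss is largely myeloid. Around Mrc1, 6 of 17 mannose receptor family and scavenger receptor genes were tested and 4 were lower (median -1.11), and without Mrc1 3 of 5 (median -1.09). The 4 were Mrc1, Cd36 (-1.27, SE 0.24), Colec12 (-1.14, SE 0.36) and Stab1 (-1.08, SE 0.36). Only 2 were called when libraries were scaled by total count, and 2 without ARF-labelled replicate 3, healthy-labelled replicate 2 or healthy-labelled replicate 3. Stab1 was also not called without ARF-labelled replicate 2 (adjusted p = 0.105).

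Around Ccr2, 5 of 33 CC chemokine and receptor genes were tested and 3 were lower. The median of -1.36 is the value of Ccr2, and without it 2 of 4 were lower (median -0.81). Ccl9 was lower on few counts (-2.09, SE 0.54) and passed the filter only through the healthy-labelled libraries. The epithelial chemokine genes Ccl27a (0.53, adjusted p = 0.129) and Ccl28 (0.28, adjusted p = 0.777) were not called. Of 21 CXC and CX3C chemokine and receptor genes 2 were tested. Cxcl3, a neutrophil attractant, was lower with 0, 3 and 1 counts in ARF-labelled and 98, 79 and 69 in healthy-labelled libraries (-6.51, SE 0.51), and it too passed the filter only through the healthy-labelled libraries. Cx3cl1, which is high in both groups, was lower (-0.59, SE 0.12). Only 1 gene of this list was called where all exon bases under a row had to lie in 1 gene.

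Among 15 myeloid transcription factor genes 3 were tested. Klf4 (-2.59, SE 0.18) and Irf8, a factor of monocytes and dendritic cells (-1.53, SE 0.26), were lower and Cebpa was higher (0.67, SE 0.18), though none was called higher where all exon bases under a row had to lie in 1 gene. Klf4 and Cebpa are expressed outside myeloid cells too. Spi1, which encodes PU.1, was read but not tested, with 8, 8 and 9 counts in ARF-labelled and 9, 17 and 19 in healthy-labelled libraries. Of 21 phagocyte oxidase, Fc receptor and antigen presentation genes 5 were tested and 2 were lower: the costimulatory gene Cd86 (-2.24, SE 0.52) and the class II gene H2-Eb1 (-1.67, SE 0.35). Only 1 was called where all exon bases under a row had to lie in 1 gene or all transcripts were used. Cd86 passed the filter on low counts only through the healthy-labelled libraries. The oxidase subunit Cybb (-1.05, adjusted p = 0.217), H2-DMa (0.01, adjusted p = 0.985) and H2-DMb1 (0.29, adjusted p = 0.481) were not called.

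Some markers of other cells were lower as well, others were not called or were higher, and their part in the result was not tested. Of 5 lymphocyte genes tested (28 listed, 9 read) 3 were lower: Il7r (-3.49, SE 0.49), the B cell factor Pax5 (-2.43, SE 0.58) and the leukocyte common antigen Ptprc (-1.13, SE 0.31). Il7r and Pax5 passed the filter on low counts only through the healthy-labelled libraries. The T cell kinase Lck (-0.02, adjusted p = 0.966) and Ikzf1 (0.16, adjusted p = 0.779) were not called. The list summed to 13.6 to 17.4 CPM in ARF-labelled and 21.7 to 47.1 CPM in healthy-labelled libraries. Ptprc lost its call without ARF-labelled replicate 2 or healthy-labelled replicate 3 (adjusted p 0.0517 and 0.0617). Of 6 erythroid and platelet genes (18 listed, 8 read) 3 were lower and 2 higher. The platelet collagen receptor gene Gp6 had 0 counts in each ARF-labelled library and 19, 22 and 18 counts in the healthy-labelled libraries (adjusted p = 0.000593 in edgeR). Gp6 thus passed the filter on low counts only through the healthy-labelled libraries. Hbb-bs (-3.37, SE 0.59) and the heme synthesis gene Alas2 (-2.86, SE 0.41) were lower, and the platelet integrin gene Itga2b was not called (-1.19, adjusted p = 0.0736). Slc4a1, which intercalated cells also express, was higher (2.86, SE 0.27), as was Klf1 (1.16, SE 0.39), which lost its call whichever library was left out. Klf1 passed the filter on low counts only through the ARF-labelled libraries. That list summed to 1498 to 2051 CPM in ARF-labelled and 307 to 1098 CPM in healthy-labelled libraries, most of it Slc4a1 in the ARF-labelled libraries. No mast cell, basophil or eosinophil gene was tested (17 listed, 7 read). Fcer1a, Ms4a2 and Epx were at 0 in every library, and the list summed to 0.916 to 1.09 CPM in ARF-labelled and 0.175 to 0.696 CPM in healthy-labelled libraries. Of 7 endothelial genes (18 listed, 7 read) 3 were lower, namely Robo4 (-2.39, SE 0.29), Pecam1 (-1.29, SE 0.16) and Eng (-1.03, SE 0.25), and 4 not called (median -0.22, summed level 166 to 203 CPM in ARF-labelled and 192 to 379 CPM in healthy-labelled libraries). All 6 immediate early genes read of 16 listed, which respond to handling, were lower (median -2.48), the largest being Fos (-3.02, and -4.80 without ARF-labelled replicate 1), Dusp1 (-3.02) and Ier2 (-2.49), at 458 to 845 CPM in ARF-labelled and 2855 to 3735 CPM in healthy-labelled libraries. Of 12 kidney tubule genes 8 were higher, led by Kcnj1, Slc4a1 and Scnn1g, and 3 lower, which were Slc34a1, Slc22a8 and Trpv5 (-1.58, SE 0.40), with a median of 1.43.

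**Figure D5:**
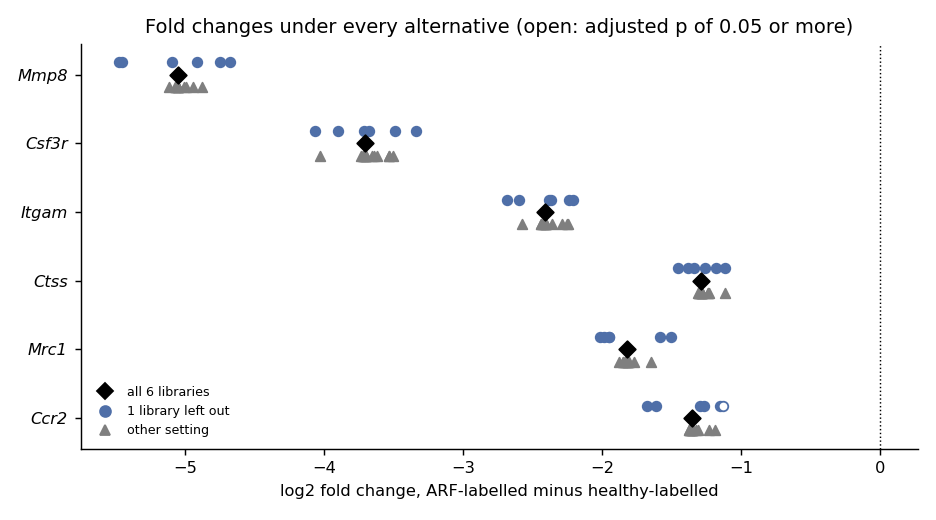
Log2 fold change of each gene, ARF-labelled minus healthy-labelled, over all 6 libraries (diamonds), with 1 library left out (circles) and under the other settings (triangles). Every value lies below 0, and the only open symbol is Ccr2 without healthy-labelled replicate 3, at -1.13.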

How the data were processed

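Kidney RNA was sequenced from 3 libraries whose label gives acute renal failure as diagnosis and 3 whose label gives healthy. The authors deposited fragment counts per row, made by featureCounts 2.0.1 over exons joined by gene name, with pairs aligned at both ends, no chimeric pairs and no use of strand, per the file headers. Bowtie 0.12.2 and mm9 are named in the submitters' processing notes. The sources used here do not give the aligner behind the counts or the build of the intervals. The deposited series table repeats these counts and adds a score that the authors named FPKM, not used here.

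A row was given to the GRCm38 gene (GENCODE basic annotation, protein-coding and long non-coding) that held a share of 0.9 or more of the exon bases under it, and 25 bases or more (bedtools 2.31.1, Python 3.11.15, pandas 2.3.3). Rows of a gene were summed, which gave 9519 genes from 12401 of 53546 rows and 62.6% to 63.5% of counts per library. Strand was ignored, so antisense and similar genes can be mixed in. The test was edgeR 4.0.16 in R 4.3.3 (quasi-likelihood, two-sided, TMM, filterByExpr, library totals over all rows, group as the only term), adjusted by Benjamini-Hochberg over 5246 genes, and was tested on simulated data. The SE is the log2 fold change over the square root of F. DESeq2 1.42.0 and limma 3.58.1 served as alternatives. Over all genes the median log2 fold change was 0.01 with TMM and 0.19 with total-count scaling. Libraries of a group differed beyond counting noise (chi-square per degree of freedom 14.7 to 22.7). Ratio intervals are exact binomial and cover counting error only. Beside the 6 genes, the text names called genes of each list, up to 3 per direction by size, and the 3 closest profiles. Mmp14 and Stat3, also called, are named beyond that rule. Genes named as not called or not tested were added after their values were seen. The 6 genes and the lists were chosen with earlier results of these data known. A gene of the CC chemokine and receptor list is counted with its list and not reported here by name.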

Additional observations from a re-analysis of the deposited data

How the results depend on the processing

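Of 115 alternative values of the 6 genes, 114 remained lower in the ARF-labelled group and passed 0.05 after adjustment (edgeR, DESeq2 or limma). The exception was Ccr2 without healthy-labelled replicate 3 (log2 fold change -1.13, adjusted p = 0.0548 in edgeR). With 1 library left out, log2 fold changes ranged from -5.48 to -4.68 for Mmp8, -4.06 to -3.34 for Csf3r, -2.68 to -2.21 for Itgam, -1.46 to -1.12 for Ctss, -2.02 to -1.51 for Mrc1 and -1.68 to -1.13 for Ccr2. Itgam gave no value when all transcripts of all genes were used. Same-numbered libraries did not deviate together (correlations -0.0669, -0.219 and -0.292). With deviations taken from means of 3 libraries, this cannot show whether the numbers pair them. With the replicate block, 2288 genes were called, against 2624, and Ccr2 stood at -1.32 (adjusted p = 0.0327 in edgeR). Scaling by total count called 1749 genes higher and 1013 lower, against 1319 and 1305. Counts called in the gene lists moved by over 1.5 times in 31 of 612 alternatives, and the neutrophil count was 2 where at least 100 exon bases were required, since fewer genes were then tested. Counts of 5 to 22 reads per ARF-labelled library limit the precision for Mmp8, and the few exon bases read limit Mrc1.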
